A study of Mus musculus with 39 samples.

Results

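Liver RNA of mice with a letrozole-induced model of polycystic ovary syndrome (PCOS) that were given roxadustat was compared with liver RNA of control mice given vehicle. The comparison held 8 of the 39 libraries of the series, 4 against 4, and was made by joining 2 liver tables by gene. Of 24504 genes in either table, 22284 were in both, and 14152 of these passed a filter on low values and were tested. All groups were C57Bl6/J mice. In the PCOS groups the aromatase inhibitor letrozole was given before puberty. Roxadustat or vehicle was then taken by mouth for 6 weeks from 12 weeks of age. Control mice received the vehicle, and what they were given before puberty is not stated. The 4 roxadustat libraries came from mice 767, 782, 795 and 808, and the 4 control libraries from mice 789, 801, 802 and 804. A further group, 4 PCOS mice given vehicle (770, 773, 785 and 814), is quoted where it bears on a value. The comparison joins the PCOS model and the drug, which differ together between its groups, so it shows how far treated PCOS livers lay from control livers and not what roxadustat did. Each library was 1 mouse, and the labels give neither the sex of the mice nor the dose.

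Letrozole blocks the conversion of androgens to oestrogens and raises circulating androgens. Roxadustat inhibits the prolyl hydroxylases encoded by the Egln genes. These enzymes tag HIF, the hypoxia-inducible factor, for breakdown while oxygen is present, and when they are blocked HIF accumulates and its target genes are transcribed. In mouse liver, many genes of steroid, drug and pheromone handling differ between the sexes. That difference is set largely by the timing of growth hormone pulses, which androgens and oestrogens shape and which act on hepatocytes through the transcription factor STAT5. Female-biased genes include the sulfotransferases of the Sult2a and Sult3a families and Cyp2b and Cyp3a enzymes. Male-biased genes include the major urinary proteins (Mup), which carry pheromones, and Cyp4a12a and Cyp2d9.

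The promoters of genes on which the comparison turned are shown first, as the 250 bases before the RefSeq start site in build GRCm38.p6, read 5′ to 3′ on the gene's own strand. Sult3a1, a female-biased sulfotransferase, and A1bg, a female-biased plasma protein gene, both hold the palindrome TTCNNNGAA, the type of sequence bound by STAT5, marked in capitals. Its first base lies at -109 in Sult3a1 (chr10:33857472-33857721, plus strand) and at -84 in A1bg (chr15:60921271-60921520, minus strand).
Sult3a1: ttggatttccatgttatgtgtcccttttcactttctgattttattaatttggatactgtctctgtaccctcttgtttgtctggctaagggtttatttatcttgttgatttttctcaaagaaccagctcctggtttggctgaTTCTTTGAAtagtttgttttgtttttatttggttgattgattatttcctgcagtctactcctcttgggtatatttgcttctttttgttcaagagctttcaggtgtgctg
A1bg: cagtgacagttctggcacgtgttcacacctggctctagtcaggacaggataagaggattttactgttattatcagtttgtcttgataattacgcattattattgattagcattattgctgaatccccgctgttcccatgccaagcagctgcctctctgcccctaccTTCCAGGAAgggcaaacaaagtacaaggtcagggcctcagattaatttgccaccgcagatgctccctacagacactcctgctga
Both strands were searched, which for a palindrome read the same. TTCNNNGAA was found in 2306 of 32851 promoter windows, 7.02%. Of 48 listed female-biased genes, 37 had windows, and 3 of 47 windows held the motif, 6.38%. Of 52 listed male-biased genes, 36 had windows, and 5 of 39 held it, 12.8%. These shares are descriptions and no test was made.

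3 male-biased urinary protein genes, Mup7 (chr4:60070476-60070725, minus strand), Mup11 (chr4:60662396-60662645, minus strand) and Mup17 (chr4:61595833-61596082, minus strand), are shown because they moved together and are close copies of each other. Capitals mark the longest run that all 3 windows share, 66 bases, which begins at -96, -202 and -225 respectively. None of the 3 windows held TTCNNNGAA.
Mup7: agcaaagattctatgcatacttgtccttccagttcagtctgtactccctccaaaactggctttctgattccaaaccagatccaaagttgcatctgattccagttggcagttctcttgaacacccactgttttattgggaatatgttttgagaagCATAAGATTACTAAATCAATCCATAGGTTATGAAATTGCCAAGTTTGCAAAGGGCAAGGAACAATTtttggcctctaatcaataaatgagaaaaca
Mup11: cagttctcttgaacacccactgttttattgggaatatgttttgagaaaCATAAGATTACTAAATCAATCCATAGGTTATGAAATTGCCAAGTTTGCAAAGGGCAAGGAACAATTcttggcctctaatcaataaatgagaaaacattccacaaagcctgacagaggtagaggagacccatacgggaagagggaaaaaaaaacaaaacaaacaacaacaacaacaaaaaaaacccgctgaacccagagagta
Mup17: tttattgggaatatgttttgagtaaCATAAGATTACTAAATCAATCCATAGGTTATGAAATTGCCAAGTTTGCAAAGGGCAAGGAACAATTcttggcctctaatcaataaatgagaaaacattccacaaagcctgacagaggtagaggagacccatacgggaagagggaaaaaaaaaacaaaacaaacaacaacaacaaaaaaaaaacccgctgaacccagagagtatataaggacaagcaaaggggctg
Copies this alike can exchange reads, so the level of a single Mup gene is uncertain even where the family as a whole is not. The same holds for neighbouring Sult2a, Cyp2b, Cyp2d, Cyp3a, Hsd3b and Gstp genes.

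Egln3 (chr12:54203875-54204124, minus strand), an oxygen-sensing hydroxylase that is itself induced by HIF, and Ankrd37 (chr8:45999851-46000100, minus strand), a HIF target, stand for the drug's pathway. Capitals mark ACGTG, the core of the HIF response element, searched on both strands. It begins at -229 in Egln3 and at -241 and -6 in Ankrd37.
Egln3: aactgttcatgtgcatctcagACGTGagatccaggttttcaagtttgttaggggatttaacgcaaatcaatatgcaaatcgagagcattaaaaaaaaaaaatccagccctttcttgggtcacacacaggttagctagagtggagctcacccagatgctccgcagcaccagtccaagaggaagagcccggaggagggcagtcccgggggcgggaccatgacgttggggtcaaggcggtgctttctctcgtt
Ankrd37: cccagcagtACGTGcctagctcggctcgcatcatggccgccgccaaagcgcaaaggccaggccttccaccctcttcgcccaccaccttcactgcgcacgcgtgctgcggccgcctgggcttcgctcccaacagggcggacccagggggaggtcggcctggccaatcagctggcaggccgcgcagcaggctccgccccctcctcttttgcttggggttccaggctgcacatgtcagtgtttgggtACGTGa
ACGTG was present in 5444 of 32851 windows, 16.6%. Among 38 of 55 listed HIF targets with windows, 21 of 49 windows held it, 42.9%. Neither motif was read as a bound site.

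Reads recovered from the deposited values numbered 15871633 to 19350634 per roxadustat library and 12389970 to 16110845 per control library. Alb, the gene of serum albumin, read 28730.0 to 43398 FPKM in roxadustat and 37028 to 49407 FPKM in control livers, and the list of 25 hepatocyte markers summed to 120300.0 to 154000.0 FPKM in roxadustat and 107000.0 to 134600.0 FPKM in control livers. FPKM counts sequenced fragments against gene length and library size. The library size that the values imply was 0.7873 to 0.8739 of the recovered reads in roxadustat libraries. In control libraries it was 0.7869 to 0.9308, so FPKM was not scaled to the same share of reads throughout. 2 libraries stood apart. The control library of mouse 801 had the fewest reads, 15334 genes with a read against 16940 to 19140 in the other controls, and 438 genes of 1 to 3 reads against 774 to 2296. The library labelled roxadustat mouse 808, called mouse 808 from here on, stood with the control libraries. On the first principal component, which held 33.35% of the variance of the 12 liver libraries, it lay at -35.14, beside -15.8 to -51.59 for the controls. The other roxadustat libraries lay at 23.83 to 26.89 and the PCOS vehicle libraries at 13.26 to 49.12.

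The place of mouse 808 was read from 222 genes that differed between PCOS vehicle and control livers in the authors' deposited table at an adjusted p under 0.05 and by at least 1 on the log2 scale. On each gene 0 was set at the control mean and 1 at the PCOS vehicle mean. The genes had to be listed in both liver tables, and beyond that roxadustat values played no part in choosing them. Control and PCOS vehicle values did, although each of these mice was placed against means that left it out. The median position was 0.947 in mouse 767, 0.929 in mouse 782 and 0.944 in mouse 795, and -0.00647 in mouse 808, whose middle 50% of genes spanned -0.229 to 0.233. Mouse 808 was nearer to control on 197 of 222 genes, 88.7%. Control livers lay between -0.0929 and 0.105 and PCOS vehicle livers between 0.829 and 1.28.

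**Figure D1:**
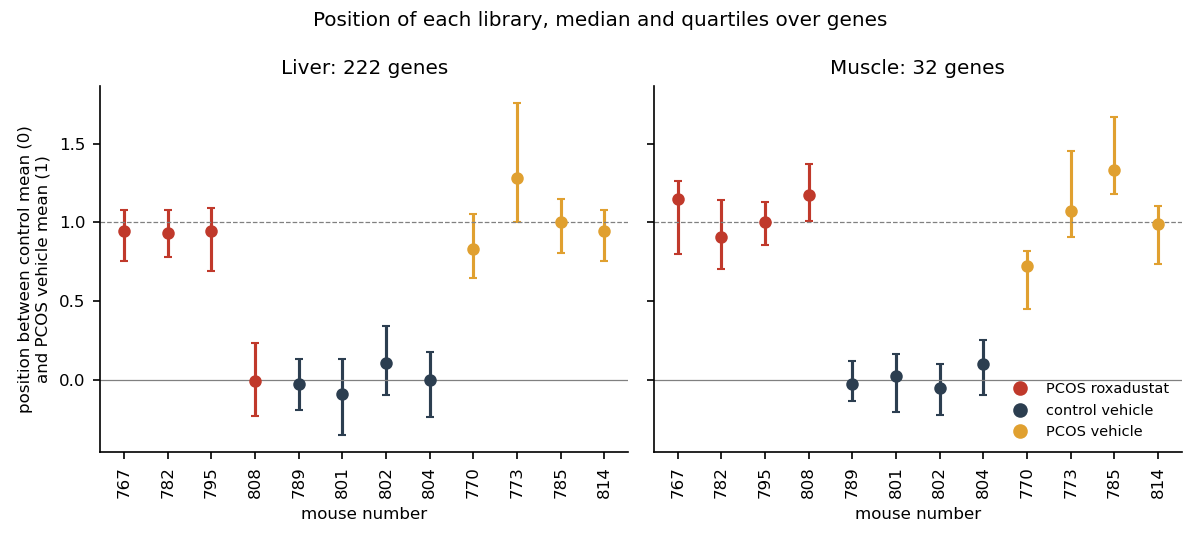
Median position of each liver and muscle library between the control mean (0) and the PCOS vehicle mean (1), with bars from the lower to the upper quartile over 222 genes in liver and 32 genes in muscle. In liver mouse 808 lies at -0.00647, among the controls, whereas in muscle it lies at 1.17, among the PCOS libraries.

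The muscle library of the same mouse did not stand with the controls. On 32 muscle genes chosen in the same way its median position was 1.17, beside 0.905 to 1.15 in the other roxadustat mice, -0.0558 to 0.0985 in control mice and 0.722 to 1.33 in PCOS vehicle mice. Actr3b, the muscle gene with the lowest adjusted p in the authors' deposited table, read 11.5 FPKM in muscle of mouse 808 and 0.669 to 1.34 FPKM in control muscle. The liver library of mouse 808 also carried skeletal muscle RNA. Of 14 listed muscle markers, 10 were in both tables, and 2 passed the filter. The 10 summed to 117 FPKM in mouse 808, beside 2.49 to 4.38 FPKM in controls and 1.83 to 4.68 FPKM in the other roxadustat livers. Whether the liver sample of mouse 808 belongs to another animal, or the liver of that animal lacked the PCOS pattern, cannot be told apart with these files. Log2 differences are given with and without it. No gene was called with it, so calls and adjusted p values are those without it unless stated. Leaving it out rests on its expression, so p-values from the remaining 7 libraries are not independent of that choice.

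With all 8 libraries, no gene passed an adjusted p of 0.05 (limma with a trend, Benjamini-Hochberg over 14152 genes), so 0% were called, and the lowest adjusted p was 0.142. At an unadjusted p under 0.05 there were 1148 genes, 654 higher (4.62%) and 494 lower (3.49%) in roxadustat livers. The values of the 4 roxadustat mice and the 4 controls did not overlap for 567 genes, 4.01%, of which 268 were higher and 299 lower. Other fits of the same 8 libraries called 2 genes, Cux2 and Mt1 (voom on recovered reads, a count-based fit), and 16 genes (weights that count deviant libraries less).

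On the 10 genes with the lowest p in the limma trend fit of all 8 libraries, mouse 808 was nearer to the other treated mice than to the controls. Ranking by that p favours such genes. Cux2 encodes a female-biased transcription factor that in mouse liver represses male-biased genes and activates female-biased ones. It read 0.403, 0.372, 0.32 and 3.12 FPKM in mice 767, 782, 795 and 808 and 25.8, 13, 30.9 and 10.8 FPKM in controls 789, 801, 802 and 804. The groups did not overlap, although mouse 808 lay above its group. The log2 difference was -3.93 with all 8 libraries (adjusted p = 0.142) and -4.45 without mouse 808 (adjusted p = 0.000167).

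Trim24, a transcriptional cofactor, read 5.27, 6.81, 4.95 and 8.12 FPKM in the treated livers and 20.6, 15.9, 14.3 and 13.4 FPKM in the controls. Its groups did not overlap either, and the log2 difference was -1.29 with all 8 libraries (adjusted p = 0.194) and -1.42 without mouse 808 (adjusted p = 0.0104). That call was lost when mouse 767 or mouse 795 was also left out, at adjusted p values up to 0.0647. Fmo2, a flavin monooxygenase, read 4.14, 4.37, 2.67 and 6.85 FPKM against 14.1, 14.1, 19.6 and 9.91 FPKM in controls, without overlap. Its log2 difference was -1.6 with all 8 libraries (adjusted p = 0.249) and -1.81 without mouse 808 (adjusted p = 0.00957).

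Mt1, a metallothionein that binds zinc and copper, was lower in every treated mouse. It read 59.4, 32.6, 98 and 140.4 FPKM, against 341, 788, 544 and 339 FPKM in controls, with a log2 difference of -2.71 with all 8 libraries (adjusted p = 0.194) and -3.03 without mouse 808 (adjusted p = 0.00592). Cyp2d12, a P450 gene, was at 0.513, 0.422, 0.396 and 0.488 FPKM in treated livers and listed at 0 in controls 789, 801 and 804, where a 0 allows up to 3 reads. Control 802 read 0.0356 FPKM. Its values were low throughout, and its call without mouse 808 (adjusted p = 0.0346) was lost with any 1 of the other 7 libraries left out.

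Cd7, a lymphocyte surface protein gene, read 0, 0, 0.407 and 0.47 FPKM in treated livers and 1.82, 2.08, 1.16 and 1.17 FPKM in controls. Fam222a read 1.65, 1.19, 2.99 and 1.32 FPKM and 0.48, 0.261, 0.329 and 0.372 FPKM. The remaining low-p genes were the long noncoding RNA genes Gm29017 (0.228, 0.228, 0.184 and 0.367 FPKM against 1.44, 2.89, 2.44 and 1.38 FPKM) and Gm31522 (2.51, 2.86, 4.74 and 1.63 FPKM against 0.729, 0, 0.272 and 0 FPKM), and 9930021J03Rik (2.06, 3.25, 1.98 and 3.11 FPKM against 5.66, 6.42, 6.45 and 6.2 FPKM). All 5 were called without mouse 808, at adjusted p values of 0.0215, 0.040, 0.0111, 0.0111 and 0.0295, and each call was lost with at least 1 more library left out. Gm29017 and Gm31522 overlap other listed genes, and the labels do not say whether strand was kept, so reads of overlapping partners cannot be told apart.

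Without mouse 808, 150 of 14152 genes were called (1.06%), 81 higher (0.572%) and 69 lower (0.488%) in the 3 roxadustat livers, and 1992 genes had an unadjusted p under 0.05, 1211 higher (8.56%) and 781 lower (5.52%). On the log2(FPKM + 0.5) scale mouse 808 was nearer to the control mean on 133 of the 150 genes. On 17 it was nearer to the other roxadustat mice, and on 79 it lay within the control range. The groups of 3 and 4 mice did not overlap for any of the 150, against 2095 genes (14.8%) among all tested, and 44 of the 150 also stayed apart with mouse 808 included. Of the 150, 120 were protein coding and 57 overlapped another listed gene. In all, 48 of the 150 were in the lists of sex-biased liver genes and 86 were in none of the lists used here. The shares of all genes called, 0.572% higher and 0.488% lower, are to be set beside the counts of each list below.

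**Figure D2:**
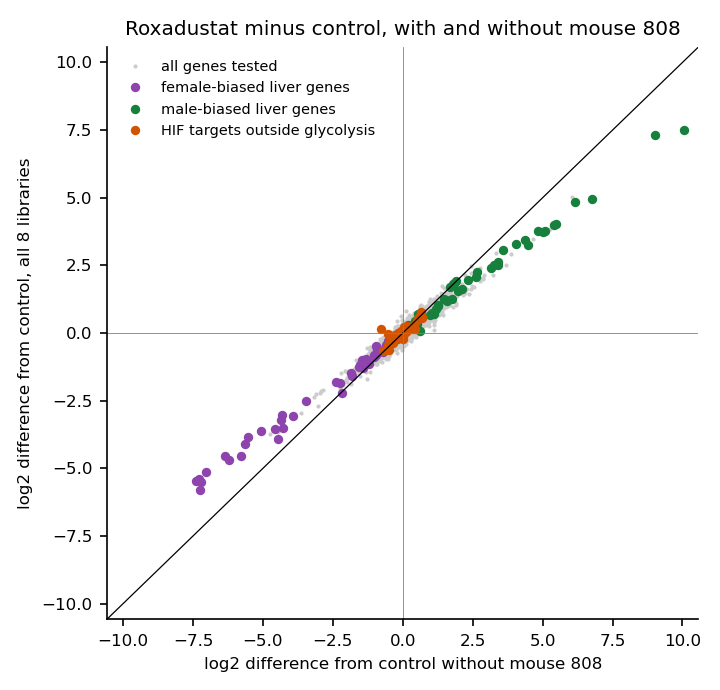
Log2 difference of each gene tested between roxadustat and control livers with all 8 libraries (vertical axis) and without mouse 808 (horizontal axis), with the female-biased, male-biased and HIF target lists coloured and a line where both are equal. The leading female-biased and male-biased genes lie nearer to 0 on the vertical axis (Mup7 at 7.5 against 10.07), and the HIF targets lie about 0 on both.

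The leading falls described here were female-biased genes. Of 48 listed, 44 were tested. Without mouse 808, 27 fell and none rose, beside 0.488% of all genes called lower. The median log2 difference was -1.82, beside 0.0145 over all genes. With all 8 libraries the median was -1.54 and none was called. Then 34 were lower at an unadjusted p under 0.05, beside 3.49% of all genes. A gene that passed the filter through its controls alone had to be lower, so the count says little beyond the values of its members. The list was drawn up with earlier results of these data known.

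Sult2a1 (mm39 chr7:13530171-13571334), a sulfotransferase of bile acids and steroids, read 0.39, 2.01 and 0 FPKM in mice 767, 782 and 795. Mouse 808 read 203 FPKM, and the controls 327, 181, 139 and 108 FPKM. Mouse 808 thus lay inside the control range while the other treated mice were below every control (log2 difference -7.38, SE 0.52, adjusted p = 0.000112). With mouse 808 included the difference was -5.48 with an adjusted p of 0.445. Its neighbour and close copy Sult2a2 showed the same order, with 1.72, 6.9 and 0 FPKM in the 3 treated mice, 366 FPKM in mouse 808 and 431, 407, 246 and 218 FPKM in controls (log2 difference -7.27, adjusted p = 0.000955, and -5.4 with mouse 808).

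Cyp2b13, a female-biased P450, was at 0.127, 4.29 and 0 FPKM against 177, 176, 133 and 198 FPKM, with 124 FPKM in mouse 808 (log2 difference -7.21, adjusted p = 0.000457, and -5.52 with mouse 808). It was listed at 0 in mouse 795, and mouse 782 held the highest level of the 3. Mouse 808 lay far above its group.

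Sult3a1, whose promoter is shown above, read 0, 1.53 and 0 FPKM, 156 FPKM in mouse 808 and 73, 191, 44.9 and 181 FPKM in controls (log2 difference -7.02, adjusted p = 0.000372, and -5.12 with mouse 808). Cyp3a44, a female-biased member of the main drug-metabolizing P450 family, read 0, 0.73 and 0 FPKM, 111 FPKM in mouse 808 and 56.1, 133, 20 and 62.7 FPKM in controls (log2 difference -6.37, adjusted p = 0.000406, and -4.53 with mouse 808). For both, mouse 808 fell inside the control range. Their calls were lost in the voom fit on recovered reads, at adjusted p values up to 0.138 and 0.166. A1bg was at 0.265, 0.512 and 0.16 FPKM in the 3 treated mice, 28.2 FPKM in mouse 808 and 23.1, 47.5, 4.43 and 11.7 FPKM in controls (log2 difference -4.34, adjusted p = 0.0111, and -3.04 with mouse 808). The call of A1bg was lost without mouse 767 or mouse 795, in the voom fit and with no filter on low values, at adjusted p values up to 0.228. It was named for its promoter after its values were seen.

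**Figure D3:**
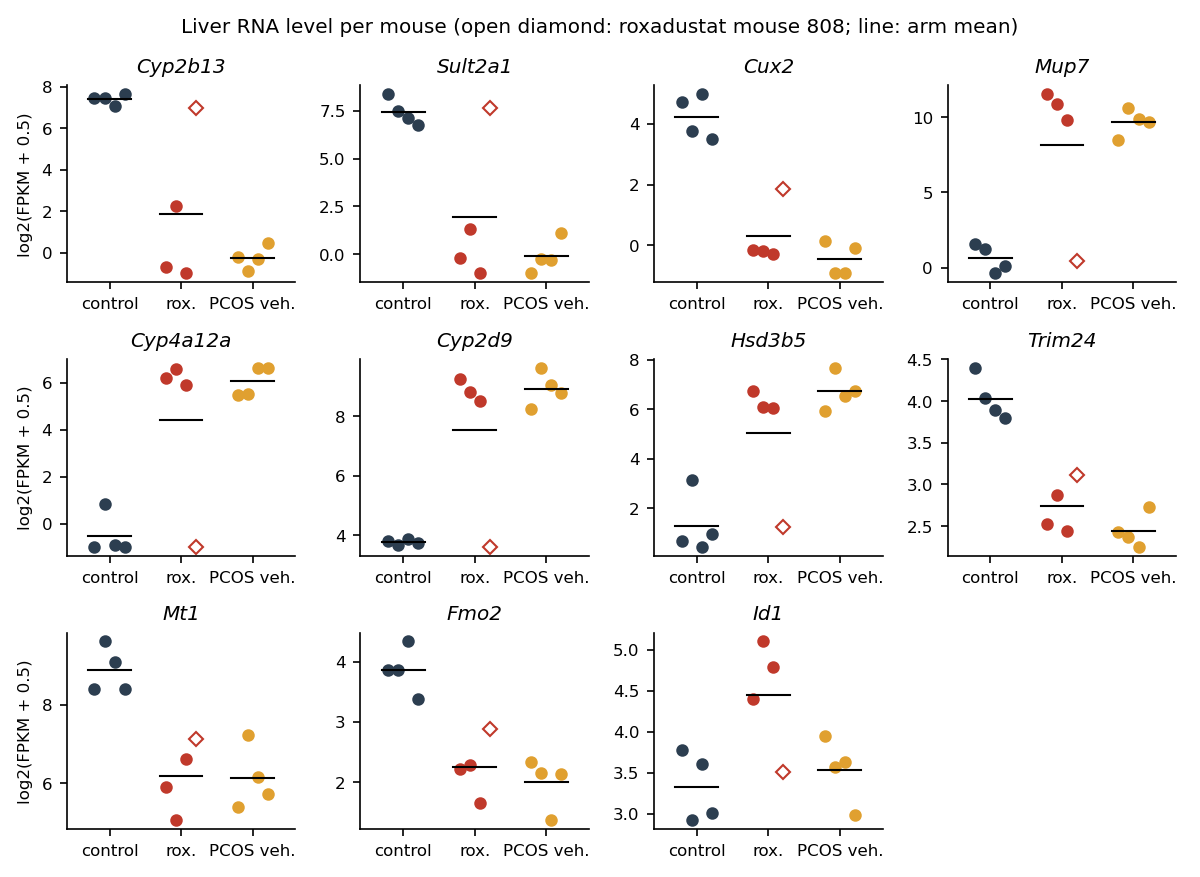
Liver level, as log2(FPKM + 0.5), of 11 genes in each control, roxadustat and PCOS vehicle mouse, with an open diamond for mouse 808 and a line at each group's mean. Mouse 808 lies near the controls on Cyp2b13, Sult2a1, Mup7, Cyp4a12a, Cyp2d9, Hsd3b5 and Id1, and nearer to the other treated mice on Cux2, Trim24, Mt1 and Fmo2.

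The 6 leading rises were male-biased genes. Of 52 listed, 47 were tested. Without mouse 808, 21 rose and none fell, beside 0.572% of all genes called higher, and the median log2 difference was 1.82. With all 8 libraries the median was 1.71. Then 32 were higher at an unadjusted p under 0.05, beside 4.62% of all genes. This list too was drawn up with earlier results of these data known, so its counts say little beyond the values of its members. Mouse 808 was nearer to the control mean on 70 of the 91 sex-biased genes tested, and on 44 of the 48 called.

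Mup7 (mm39 chr4:60066469-60070475) had the largest rise. It read 2889.5, 1836 and 889.9 FPKM in mice 767, 782 and 795 and 2.46, 1.89, 0.267 and 0.604 FPKM in controls, with 0.859 FPKM in mouse 808 (log2 difference 10.07, SE 0.51, adjusted p = 1.68e-05). The difference with all 8 libraries was 7.5 (adjusted p = 0.445). Mup12, another urinary protein gene, rose from 1.37, 9.86, 2.09 and 6.65 FPKM in controls to 3141, 4465 and 805 FPKM (log2 difference 9.01, adjusted p = 0.000144, and 7.33 with mouse 808). In mouse 808 it read 20.9 FPKM, above every control and far under the other treated mice.

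Mup20, which encodes the pheromone darcin, read 1754, 2974 and 3914 FPKM against 56.6, 95.5, 38.1 and 83.6 FPKM, and 57 FPKM in mouse 808 (log2 difference 5.4, adjusted p = 8.00e-05, and 4.0 with mouse 808). Mup21 read 168, 299 and 285 FPKM against 13.6, 23.2, 12.8 and 9.67 FPKM, and 28 FPKM in mouse 808 (log2 difference 4.06, adjusted p = 0.000122, and 3.29 with mouse 808). Mup11 read 301, 399 and 174 FPKM against 5.29, 14.8, 1.31 and 8.71 FPKM, and 4.39 FPKM in mouse 808 (log2 difference 5.48, adjusted p = 0.00202, and 4.02 with mouse 808). The 3 treated mice were above all controls for each of these genes. Mup17 was more uneven, at 3469, 2204 and 171 FPKM against 13, 28.9, 4.46 and 28.6 FPKM, with 29.7 FPKM in mouse 808, and its call (log2 difference 6.14, adjusted p = 0.0169, and 4.85 with mouse 808) was lost without mouse 767, mouse 782 or control 789, at adjusted p values up to 0.101.

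Cyp2d9 (mm39 chr15:82317638-82341046), a male-biased P450 with steroid 16-alpha-hydroxylase activity, had the lowest adjusted p of all genes and was named after its values were seen. It read 602, 449 and 360.4 FPKM in the 3 treated mice, 11.7 FPKM in mouse 808 and 13.3, 12.2, 14.1 and 12.7 FPKM in controls (log2 difference 5.08, SE 0.19, adjusted p = 3.14e-06). Mouse 808 was below every control, and the difference with it was 3.77 (adjusted p = 0.445). Cyp4a12a, a male-biased fatty acid hydroxylase, read 72.9, 94.8 and 59.9 FPKM in the 3 treated mice and was listed at 0 in mouse 808. Among controls it was listed at 0 in mice 789 and 804, at 1.27 FPKM in mouse 801 and at 0.0285 FPKM in mouse 802 (log2 difference 6.75, adjusted p = 7.54e-05, and 4.95 with mouse 808).

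Hsd3b5, a male-biased steroid dehydrogenase of liver, rose from 1.08, 8.28, 0.846 and 1.41 FPKM in controls to 107, 67.7 and 64.9 FPKM, with 1.87 FPKM in mouse 808 (log2 difference 5.0, adjusted p = 0.00223, and 3.74 with mouse 808). Elovl3, an elongase of long fatty acids, rose from 0.482, 0.467, 0.244 and 1.3 FPKM to 43.3, 36.5 and 17.1 FPKM, with 0.988 FPKM in mouse 808 (log2 difference 4.84, adjusted p = 0.000166, and 3.75 with mouse 808). It was the single called gene of 33 tested for fatty acid and triglyceride synthesis, whose median log2 difference was 0.18 without mouse 808 and 0.12 with it. C6, a complement component, rose from 5.05, 7.27, 5.32 and 5.2 FPKM to 52.6, 66.6 and 56.9 FPKM, with 7.25 FPKM in mouse 808 (log2 difference 3.26, adjusted p = 2.33e-05, and 2.53 with mouse 808). These 3 genes kept their calls with each of the other 7 libraries left out in turn.

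Among 26 tested genes of growth hormone, STAT5 and known dimorphism regulators, 3 fell and none rose without mouse 808, with a median of -0.19 (-0.12 with it). Over all genes 0.488% were called lower. The 3 that fell were Cux2, Trim24 and Prlr. Prlr, the prolactin receptor, read 10.6, 10.7 and 7.5 FPKM, 27.5 FPKM in mouse 808 and 27.9, 38.4, 21.2 and 29.1 FPKM in controls (log2 difference -1.54, adjusted p = 0.0111, and -1.17 with mouse 808), and its call was lost without mouse 795 (adjusted p = 0.0559). On the log2(FPKM + 0.5) scale mouse 808 lay nearer to the other treated mice on Cux2 and Trim24. On Cux2 it still read 3.12 FPKM, between the other treated mice (0.32 to 0.403 FPKM) and the controls (10.8 to 30.9 FPKM). On Prlr it lay within the control range. Prlr was named after its values were seen.

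Steroid metabolism genes moved in both directions. Of 22 tested, 4 rose and 1 fell without mouse 808, beside 0.572% and 0.488% of all genes. With all 8 libraries 4 were higher and 5 lower at an unadjusted p under 0.05, beside 4.62% and 3.49% of all genes. Srd5a1, the steroid 5-alpha-reductase that makes dihydrotestosterone, rose from 7.72, 15.2, 8.28 and 7.67 FPKM in controls to 34.9, 23.2 and 31.4 FPKM (log2 difference 1.61, adjusted p = 0.0204, and 1.28 with mouse 808), with 11.4 FPKM in mouse 808. Its call was lost in 4 of the 7 fits that left out 1 more library. The other calls, named after their values were seen, were the dehydrogenases Hsd3b2 (log2 difference 1.06, adjusted p = 0.0111, and 0.75 with mouse 808) and Hsd17b10 (log2 difference 0.92, adjusted p = 0.0486, and 0.70 with mouse 808), which rose beside Hsd3b5, and Hsd17b6 (log2 difference -1.99, adjusted p = 0.0467, and -1.42 with mouse 808), which fell. Hsd17b6, which acts on androgens, read 31.1, 26.7 and 93 FPKM, 212 FPKM in mouse 808 and 180.5, 145, 149.7 and 218 FPKM in controls. With 1 more library left out, these 3 calls were lost in 2, 7 and 6 of 7 fits.

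In bile acid synthesis and transport, 2 of 32 tested genes rose and 1 fell without mouse 808, beside 0.572% and 0.488% of all genes. With all 8 libraries none was called. The median log2 difference was -0.15 without mouse 808 and 0.028 with all 8 libraries, so its sign turned with that library. Among fits that kept mouse 808 it was also below 0 without control 801 (-0.030), under quantile scaling (-0.052), with library weights (-0.069) and with a term for libraries with few genes of 1 to 3 reads (-0.063). Cyp8b1, the 12-alpha-hydroxylase that directs synthesis to cholic acid, read 283, 184 and 194 FPKM against 71.4, 80.5, 71.5 and 108 FPKM in controls, and 132 FPKM in mouse 808, above every control. Its log2 difference was 1.22 with all 8 libraries (adjusted p = 0.249) and 1.4 without mouse 808 (adjusted p = 0.015). Cyp7b1, the oxysterol 7-alpha-hydroxylase, was named after its values were seen and read 49.5, 37.4 and 35.9 FPKM against 14.3, 13.8, 4.68 and 10.3 FPKM, with 11.6 FPKM in mouse 808 (log2 difference 1.98, adjusted p = 0.0278, and 1.54 with mouse 808). Slco1a4, an organic anion uptake transporter, fell from 51.4, 51.3, 45 and 56.1 FPKM to 20.6, 15.2 and 32.4 FPKM, with 27.6 FPKM in mouse 808 (log2 difference -1.21, adjusted p = 0.0486, and -1.13 with mouse 808). Its groups did not overlap with mouse 808 included, and its call was lost in 6 of the 7 fits with 1 more library left out. The calls of Cyp8b1 and Cyp7b1 were lost in 3 and 4 of those fits.

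**Figure D4:**
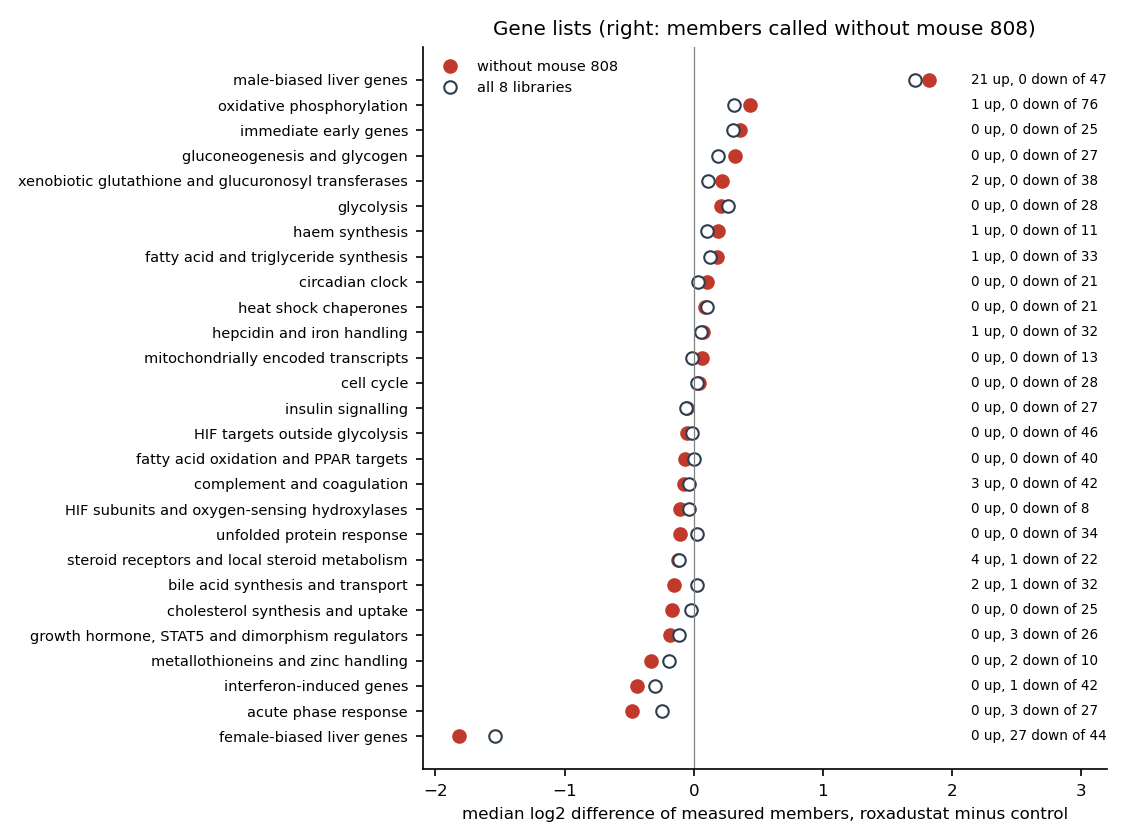
Median log2 difference between roxadustat and control livers of each pathway list, with all 8 libraries and without mouse 808, with the number of members called without mouse 808 at the right. The female-biased and male-biased lists lie at -1.82 and 1.82 without mouse 808, and the HIF targets lie at -0.0496.

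Energy metabolism showed small shared differences with few calls. Of 76 tested genes of oxidative phosphorylation, 74 had a log2 difference above 0 with all 8 libraries, with a median of 0.31, beside 52.1% of all genes above 0. Without mouse 808 the median was 0.44, 43 of 76 were higher at an unadjusted p under 0.05, beside 1211 of all 14152 genes (8.56%), and 1 was called. That gene, Ndufv3, a subunit of complex I, read 60.8, 63.5 and 60.9 FPKM, 26.5 FPKM in mouse 808 and 32.5, 28.8, 42 and 30.5 FPKM in controls (log2 difference 0.89, adjusted p = 0.045, and 0.59 with mouse 808), and its call was lost in 6 of the 7 fits with 1 more library left out and in 5 of 11 other alternatives. The members of lowest p with all 8 libraries, Ndufb10 (log2 difference 0.54 with all 8 libraries, adjusted p = 0.60, and 0.69 without mouse 808, adjusted p = 0.159) and Atp5g2 (log2 difference 0.59 with all 8 libraries, adjusted p = 0.614, and 0.69 without mouse 808, adjusted p = 0.292), were not called. Under quantile scaling 61 members lay above 0 with a median of 0.184 over all 8 libraries. The transcripts encoded in mitochondria themselves had a median of -0.016 with all 8 libraries and 0.061 without mouse 808. It rested on control 801, since without that library it was 0.24, with 11 of 13 above 0, and with the term for few genes of 1 to 3 reads it was 0.29. The mitochondrial share of reads ranged from 8.417% to 16.11% in roxadustat and from 7.874% to 17.78% in control livers.

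Among 27 tested genes of gluconeogenesis and glycogen, none was called. G6pc, the glucose-6-phosphatase that releases glucose from the liver, had the lowest p and read 254, 153, 169.6 and 304 FPKM in mice 767, 782, 795 and 808 against 100.5, 30.6, 63.7 and 47.6 FPKM in controls. All 4 treated mice were above all controls, and the log2 difference was 1.93 with all 8 libraries (adjusted p = 0.249) and 1.75 without mouse 808 (adjusted p = 0.0632). The PCOS vehicle livers spread from 12.4 to 201 FPKM. Gpt2, an alanine aminotransferase, had log2 differences of 0.65 with all 8 libraries (adjusted p = 0.567) and 0.86 without mouse 808 (adjusted p = 0.0777).

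Of 28 glycolysis genes tested, 23 were above 0 and none was called, with medians of 0.27 with all 8 libraries and 0.21 without mouse 808. With the term for few genes of 1 to 3 reads these medians were 0.10 and 0.12, and under quantile scaling 17 and 18 members lay above 0 (0.17 and 0.14). The lowest p values belonged to Aldoc, an aldolase (log2 difference 0.77 with all 8 libraries, adjusted p = 0.578, and 1.01 without mouse 808, adjusted p = 0.12), and Pfkfb1, the liver regulator of fructose 2,6-bisphosphate (log2 difference 0.54 with all 8 libraries, adjusted p = 0.551, and 0.65 without mouse 808, adjusted p = 0.164). No gene of cholesterol synthesis and uptake (25 tested) or of fatty acid oxidation (40 tested) was called in either fit. Their medians were -0.17 and -0.067 without mouse 808, and -0.022 and -0.0011 with it. Of 38 glutathione and glucuronosyl transferases, 2 rose. Gstp1, a male-biased glutathione transferase, read 629.6, 412 and 902 FPKM against 123, 73.7, 143 and 78.6 FPKM, with 132 FPKM in mouse 808 (log2 difference 2.61, adjusted p = 0.0034, and 2.06 with mouse 808). Its close copy Gstp2 read 4.36, 6.8, 7.6 and 6.06 FPKM in the 4 treated mice and 0.428, 1.2, 1.49 and 3.36 FPKM in controls, without overlap, and was not called (adjusted p = 0.0981 without mouse 808). The other rise was Gsta1, named after its values were seen, at 5.16, 10.3 and 9.25 FPKM against 0.83, 1.29, 1.01 and 0 FPKM, with 0.247 FPKM in mouse 808 (log2 difference 2.86, adjusted p = 0.0137, and 1.99 with mouse 808). Its call was lost in 2 of 7 fits with 1 more library left out.

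Mt2 fell together with Mt1. Mt2, which binds zinc like Mt1, was at 0.541, 0 and 1.96 FPKM in the 3 treated mice, 6.74 FPKM in mouse 808 and 17, 29.7, 23.6 and 14.7 FPKM in controls. All 4 treated mice were below all controls, mouse 808 closest to them, and the log2 difference was -3.59 with all 8 libraries (adjusted p = 0.249) and -4.27 without mouse 808 (adjusted p = 0.00188). The PCOS vehicle livers read 0 to 0.418 FPKM for Mt2 and 41.2 to 149.5 FPKM for Mt1. Of 10 tested genes of metallothioneins and zinc handling these 2 fell and none rose. Mt2 overlaps another listed gene, and its call was lost in the voom fit (adjusted p = 0.0695).

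No gene of the HIF pathway, the target of roxadustat, passed the test against control livers. Of 55 listed HIF targets outside glycolysis, 46 were tested, 23 were above 0 and 23 below it with all 8 libraries, and none was called with or without mouse 808. The median log2 difference was -0.013 with all 8 libraries and -0.050 without mouse 808. The first changed sign under quantile scaling (0.0114) and the second with a term for libraries with few genes of 1 to 3 reads (0.00907). At an unadjusted p under 0.05, 5 were higher and 1 lower with all 8 libraries, beside 4.62% and 3.49% of all genes. The 2 of lowest p were Ddit4, an inhibitor of mTOR signalling, at 3.08, 2.56, 1.88 and 3.87 FPKM against 1.58, 1.17, 1.14 and 1.78 FPKM, and Kdm3a, a histone demethylase, at 2.36, 3.18, 2.07 and 2.8 FPKM against 4.69, 3.16, 3.87 and 6.55 FPKM. Ddit4 had a log2 difference of 0.79 with all 8 libraries (adjusted p = 0.47) and 0.65 without mouse 808 (adjusted p = 0.267), and Kdm3a of -0.68 with all 8 libraries (adjusted p = 0.539) and -0.71 without mouse 808 (adjusted p = 0.269). For Ddit4 all 4 treated mice lay above all controls.

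None of the 8 tested HIF subunits and oxygen-sensing hydroxylases was called. Egln3 read 3.98, 4.61, 4.57 and 7.09 FPKM in mice 767, 782, 795 and 808 and 5.22, 3.28, 3.73 and 7.06 FPKM in controls, with overlap. Its log2 difference without mouse 808 was -0.072 (95% interval -0.65 to 0.51), and with it 0.087. Egln1, the main hydroxylase of HIF, read 6.29, 7.38, 8.56 and 9.0 FPKM and 9.5, 7.65, 7.75 and 7.79 FPKM, with a difference of -0.14 without mouse 808 (95% interval -0.54 to 0.27) and -0.069 with it. Ankrd37 read 1.34, 1.73, 0.65 and 1.23 FPKM and 1.7, 0.866, 3.23 and 0.456 FPKM, and its difference was -0.11 without mouse 808 (95% interval -1.1 to 0.88) and -0.10 with it. The 3 intervals include 0. They are on the log2(FPKM + 0.5) scale, which understates changes of low genes such as Ankrd37.

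Other HIF targets gave intervals of like width without mouse 808. Vegfa, an angiogenic factor, read 85.2, 108, 96.5 and 95.3 FPKM against 110.0, 105, 148 and 116 FPKM (log2 difference -0.30, 95% interval -0.70 to 0.089, and -0.31 with mouse 808). Bnip3, a mitophagy receptor, read 43.7, 31.3, 40.7 and 46.7 FPKM against 58.1, 88.7, 43.2 and 42.1 FPKM (-0.53, -1.12 to 0.063, and -0.46 with mouse 808). Pdk1, which restrains pyruvate entry into mitochondria, read 15.9, 15.1, 9.86 and 9.34 FPKM against 15.7, 14.2, 13.9 and 11.7 FPKM (-0.046, -0.51 to 0.41, and -0.17 with mouse 808). None of these 3 passed, and their groups overlapped.

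Ldha, lactate dehydrogenase A, read 134, 80.4, 114 and 258 FPKM against 155, 133, 96.9 and 145 FPKM, and its highest value was that of mouse 808, the library with skeletal muscle transcripts. Its difference was 0.030 with all 8 libraries and -0.29 without mouse 808 (95% interval -0.80 to 0.22). Slc2a1, a glucose transporter, read 3.97, 3.17, 3.69 and 2.29 FPKM against 3.42, 2.6, 2.77 and 1.67 FPKM (0.43, -0.12 to 0.97, and 0.29 with mouse 808). The lipase inhibitor Angptl4 read 42.6, 23, 15.6 and 11.1 FPKM against 24.1, 13.1, 18.6 and 18.4 FPKM (0.44, -0.28 to 1.16, and 0.16 with mouse 808). Whether the muscle transcripts bear on Ldha was not tested.

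Igfbp1, an insulin-repressed binding protein of the growth factor IGF1, varied widely within both groups, at 9.34, 1.65, 19.2 and 97.6 FPKM against 38.7, 2.69, 16 and 12.1 FPKM, with an interval of -2.71 to 1.18 around -0.76 without mouse 808, and a difference of 0.17 with it. Car9, a carbonic anhydrase, failed the filter and was listed at 0 in 2 treated and 3 control livers. Epo, the erythropoietin gene, was listed in only 1 of the 2 liver tables and is not used here.

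**Figure D5:**
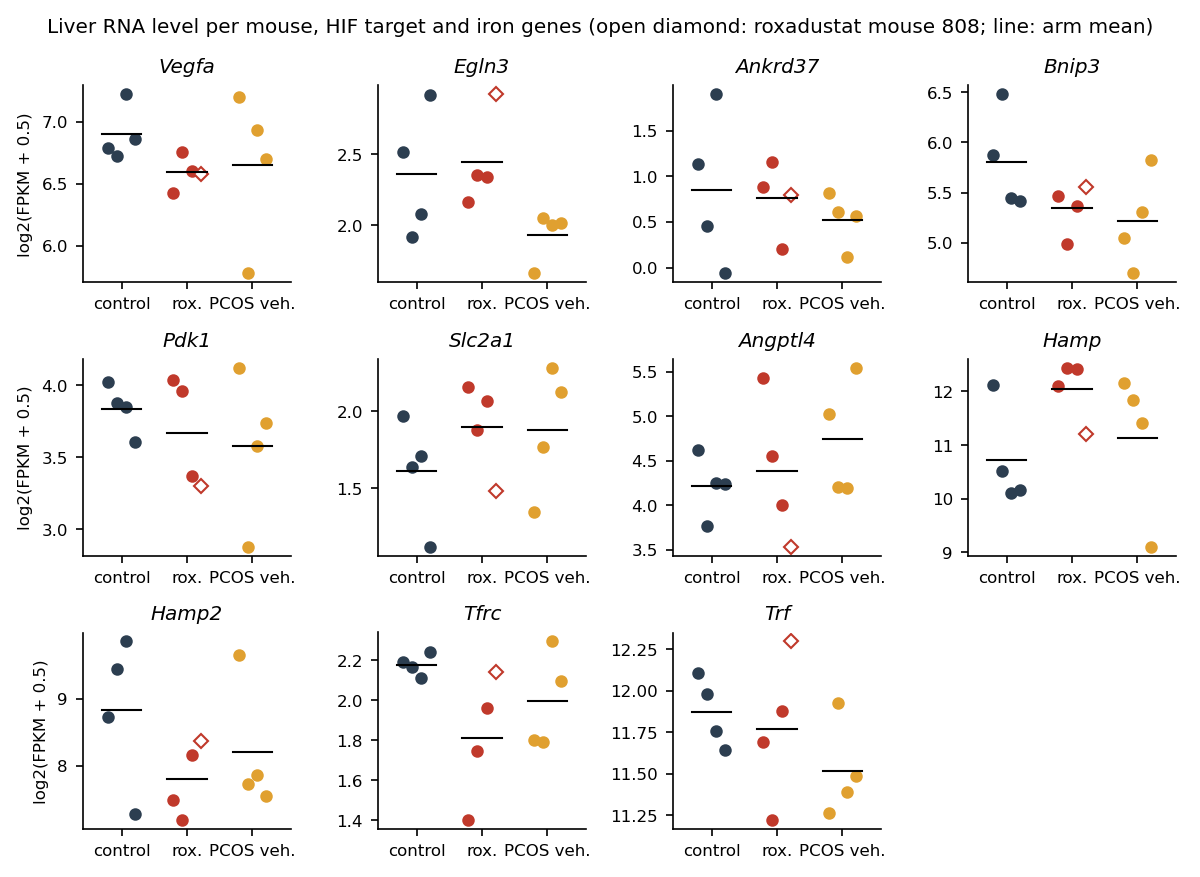
Liver level, as log2(FPKM + 0.5), of 11 HIF target and iron genes in each control, roxadustat and PCOS vehicle mouse, with an open diamond for mouse 808 and a line at each group's mean. The 4 roxadustat and 4 control mice overlap on each of the 11 genes, Egln3, Vegfa and Hamp included.

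Iron handling was examined because HIF and erythropoiesis act on hepcidin, the hormone that limits iron export into blood. Hamp, the hepcidin gene, read 4418, 5551, 5478 and 2358 FPKM in mice 767, 782, 795 and 808 and 4463, 1457, 1109 and 1147 FPKM in controls. Control 789 read slightly above mouse 767, and the other 3 controls lay below every treated mouse. The log2 difference was 1.31 with all 8 libraries (adjusted p = 0.558) and 1.59 without mouse 808 (adjusted p = 0.164), with a 95% interval of 0.55 to 2.64 in the latter. Its copy Hamp2 read 181, 146, 286 and 330.2 FPKM against 423, 695, 920.0 and 157 FPKM (log2 difference -1.02 with all 8 libraries, adjusted p = 0.615, and -1.21 without mouse 808, adjusted p = 0.347).

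Id1, a target of the BMP signal that also drives hepcidin, was the 1 called gene of 32 tested for iron handling. It read 20.5, 33.8 and 27.1 FPKM in mice 767, 782 and 795, 10.9 FPKM in mouse 808 and 13.2, 7.07, 11.7 and 7.6 FPKM in controls (log2 difference 1.43, adjusted p = 0.0378, and 1.12 with mouse 808). The call was lost in 5 of the 7 fits with 1 more library left out. The PCOS vehicle livers read 7.4 to 14.9 FPKM, so the 3 treated mice also lay above these, with a log2 difference of 1.22, and 0.91 with mouse 808 (without it unadjusted p = 0.000869, adjusted p = 1.0). Tfrc, the transferrin receptor, read 2.14, 2.86, 3.39 and 3.92 FPKM against 4.07, 4.0, 3.81 and 4.24 FPKM (log2 difference -0.37 with all 8 libraries, adjusted p = 0.656, and -0.48 without mouse 808, adjusted p = 0.337). Trf, transferrin, read 3303, 2384, 3760.1 and 5031 FPKM against 4408, 4046, 3462 and 3195 FPKM (log2 difference -0.10 with all 8 libraries, adjusted p = 0.936, and -0.28 without mouse 808, adjusted p = 0.679). For Alb the log2 difference was -0.30 without mouse 808 (95% interval -1.32 to 0.72) and -0.23 with it.

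Alas2, the erythroid form of the first enzyme of haem synthesis, rose from 3.04, 4.4, 4.59 and 9.47 FPKM in controls to 42.7, 21.2 and 29 FPKM, with 3.27 FPKM in mouse 808 (log2 difference 2.47, adjusted p = 0.00983, and 1.72 with mouse 808). It was the 1 called gene of 11 in haem synthesis, and its call was lost without mouse 767 (adjusted p = 0.056). The 12 erythroid markers in both tables summed to 308 FPKM in mouse 808 and 374 to 1671 FPKM in the other treated livers. In controls they summed to 762 to 1273 FPKM. Of 9 tested erythroid markers, 3 were above 0 and 6 below it without mouse 808, and 1, Alas2 itself, was called. The part of blood cells in its rise was not tested, and the PCOS vehicle livers read 17.7 to 29.3 FPKM.

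In complement and coagulation, 3 of 42 tested genes rose without mouse 808 and none fell, while the median was -0.079. None was called with all 8 libraries, and the median was then -0.037. Beside C6 these were C4a, at 12.7, 20.5 and 19.4 FPKM against 1.47, 0.992, 1.31 and 0.716 FPKM (log2 difference 3.47, adjusted p = 0.000121, and 2.68 with mouse 808), and C8a, at 138, 160.3 and 180.1 FPKM against 50.5, 53, 37.4 and 87.7 FPKM (log2 difference 1.53, adjusted p = 0.0271, and 1.21 with mouse 808), both named after their values were seen. C4a encodes a copy of complement component C4 known as sex-limited protein, and was at 1.5 FPKM in mouse 808. The calls of C4a and C8a were lost in 0 and 5 of 7 fits with 1 more library left out. A further member with low p in all 8 libraries was C9, a pore-forming component, at 126, 130.1, 135 and 96.5 FPKM against 73, 83.5, 51 and 65.5 FPKM without overlap. C9 was not called (adjusted p = 0.0504 without mouse 808). Of 27 acute phase genes 3 fell without mouse 808, with a median of -0.48. The median was -0.25 with all 8 libraries, and none was then called. The 3 were Mt1, Mt2 and Apcs, the gene of serum amyloid P, which was named after its values were seen and read 84.7, 89.1 and 74.9 FPKM, 190.2 FPKM in mouse 808 and 203, 219.7, 162 and 228 FPKM in controls (log2 difference -1.28, adjusted p = 0.00743, and -0.98 with mouse 808). The call of Apcs was lost in 1 of 7 fits with 1 more library left out. Of 42 interferon-induced genes, 34 were below 0 in both fits, beside 6785 and 6853 of all 14152 genes, 1 fell without mouse 808, and the medians were -0.30 and -0.44. Without control 801 the first median was -0.15. The gene that fell was Irgm2, a GTPase of defence against intracellular microbes, named after its values were seen (log2 difference -1.23, adjusted p = 0.0195, and -0.77 with mouse 808, lost in 5 of 7 fits with 1 more library left out). It read 6.08, 4.97 and 4.59 FPKM in the 3 treated mice, 16.3, 11.1, 11 and 13.5 FPKM in controls, and 20.2 FPKM in mouse 808, above every control. The 2 of lowest p with all 8 libraries, Ifi27l2a (log2 difference -1.0 with all 8 libraries, adjusted p = 0.468, and -1.13 without mouse 808, adjusted p = 0.144) and Usp18 (log2 difference -0.58 with all 8 libraries, adjusted p = 0.614, and -0.74 without mouse 808, adjusted p = 0.226), were not called.

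Bulk RNA cannot tell fewer cells of a type from less RNA per cell. Macrophage and Kupffer cell markers summed to 215 to 384 FPKM in treated livers, the highest in mouse 808, and to 204 to 507 FPKM in controls. 1 of 25 tested fell without mouse 808. That gene, Vsig4, the complement receptor of resident macrophages, read 4.72, 4.73 and 4.66 FPKM, 16.9 FPKM in mouse 808 and 9.25, 19.2, 18.9 and 10.9 FPKM in controls (log2 difference -1.46, adjusted p = 0.040, and -1.03 with mouse 808), and its call was lost in 6 of the 7 fits with 1 more library left out. T and NK cell markers summed to 7.32 to 16.6 FPKM in treated and 10.6 to 19.2 FPKM in control livers. Gzmb, granzyme B of cytotoxic cells, was the 1 of 12 tested that fell, from 1.38, 1.57, 0.721 and 0.76 FPKM to 0.0554, 0.19 and 0.0536 FPKM, with 0.618 FPKM in mouse 808 (log2 difference -1.39, adjusted p = 0.0346, and -1.17 with mouse 808), and its call was lost in 5 of those 7 fits.

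Bile duct markers summed to 82.6 to 152 FPKM in treated livers and 56.6 to 87.6 FPKM in controls. 12 of 14 were above 0 in both fits and none was called. The bile duct sums overlapped between groups, and summed stellate, endothelial, B cell, neutrophil, adipocyte, mesothelial and pancreatic acinar markers did too. That holds with mouse 808 included. In mice 767, 782 and 795 the mesothelial sums, 196 to 244 FPKM, lay above the controls, at 87 to 168 FPKM. The acinar sums of 4 markers did as well, at 8.86 to 16.7 FPKM against 4.95 to 8.31 FPKM. Their part in the results was not tested. None of these lists held a called gene, and the single marker at 0 in all 8 libraries was the acinar gene Prss1. Insulin signalling, the unfolded protein response, heat shock chaperones, immediate early genes, the circadian clock and the cell cycle also held no called gene in either fit.

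Roxadustat and PCOS vehicle livers were compared on the same 14152 genes, which sets treated beside untreated PCOS livers. The main fit used no control values. Roxadustat and control reads, and no PCOS vehicle reads, had set the filter for these genes. None was called, 0% with all 8 libraries and 0% without mouse 808, and the lowest adjusted p was 1 in both. At an unadjusted p under 0.05 there were 415 genes (2.93%) and 454 genes (3.21%). The voom fit, the weighted fit and every other alternative also called none. Of the 150 genes called against control without mouse 808, 18 had an unadjusted p under 0.05 against PCOS vehicle. Both comparisons used the same roxadustat libraries, which favours genes picked in the first. That count cannot be read against the 3.21% of all genes.

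Values of 4 leading genes are set beside those of the PCOS vehicle mice. Sult2a1 read 0 to 2.01 FPKM in the 3 treated and 0 to 1.65 FPKM in the PCOS vehicle mice, with a log2 difference of 0.16 (95% interval -1.14 to 1.46, and 2.06 with mouse 808). For Mup7 the ranges were 889.9 to 2889.5 FPKM and 350.2 to 1584 FPKM (1.06, -0.14 to 2.26, and -1.51 with mouse 808). For Cyp2d9 they were 360.4 to 602 FPKM and 298 to 783 FPKM (-0.068, -0.82 to 0.68, and -1.38 with mouse 808). Mup17 differed more, at 3469, 2204 and 171 FPKM in the 3 treated mice against 24.7 to 1239.9 FPKM in the PCOS vehicle mice (3.13, -0.026 to 6.28, and 1.83 with mouse 808). The 4 intervals include 0, and none of the 4 genes passed.

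No HIF target passed against PCOS vehicle either. Egln3 read 3.98 to 4.61 FPKM in the 3 treated mice and 2.66 to 3.64 FPKM in PCOS vehicle mice (0.35, 95% interval -0.066 to 0.78, and 0.51 with mouse 808). On Egln3 all treated mice, mouse 808 included, lay above all PCOS vehicle mice. Vegfa read 85.2 to 108 FPKM and 54.4 to 146 FPKM (-0.058, -0.75 to 0.64, and -0.061 with mouse 808). Hamp read 4418 to 5551 FPKM and 549 to 4576 FPKM (1.19, -0.28 to 2.66, and 0.91 with mouse 808). Cux2, Trim24 and Fmo2 were among the genes on which mouse 808 was nearer to the treated mice on the log2(FPKM + 0.5) scale. In PCOS vehicle livers they read 0.0244 to 0.591, 4.25 to 6.11 and 2.09 to 4.56 FPKM respectively, each below all controls. Cd7 was lower in the 3 treated mice, at 0 to 0.407 FPKM against 0.462 to 1.52 FPKM (log2 difference -1.33, -1.16 with mouse 808, and without it unadjusted p = 0.00204, adjusted p = 1.0).

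Macrophage markers, singled out here after their values were seen, had lower sums in the 3 treated than in the PCOS vehicle livers. They summed to 215 to 262 FPKM in mice 767, 782 and 795 and to 263 to 430.3 FPKM in PCOS vehicle mice. These ranges nearly touched. In mouse 808 the sum was 384 FPKM, inside the PCOS vehicle range, and the control sums, 204 to 507 FPKM, spanned both groups. Of 25 tested markers, 9 had an unadjusted p under 0.05, against 454 of all 14152 genes, and none was called. Their median log2 difference was -0.29 without mouse 808 and -0.10 with it. Vsig4 read 4.66 to 4.73 FPKM against 6.19 to 10.3 FPKM (log2 difference -0.75, -0.32 with mouse 808, and without it unadjusted p = 0.00404, adjusted p = 1.0). Clec4f, a receptor specific to Kupffer cells and named after its values were seen, read 34.2, 33.9 and 34.3 FPKM in mice 767, 782 and 795, 37.5 FPKM in mouse 808 and 36.7 to 77.7 FPKM in PCOS vehicle mice (log2 difference -0.66, -0.62 with mouse 808, and without it adjusted p = 1.0). Its control range was 37.5 to 79 FPKM.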

How the data were processed

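Poly-A RNA of liver was sequenced from 300 ng of column-purified RNA, per the labels, which do not say whether the libraries were directional. Per the submitters' processing notes, the authors used CASAVA 1.8, HISAT2 2.0.5 with build mm39, and DESeq2 1.20.0. The read counter and the annotation release are not given in the sources used here. Per the file headers, the deposited values were FPKM and gene lengths. The authors' log2 fold changes and adjusted p-values, also deposited, were used only to choose the genes that placed the libraries between control and PCOS vehicle.

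The 2 liver tables were joined by gene. The shared PCOS vehicle columns were identical, with a largest difference of 0, and 0 sample columns were left unused. Within a tolerance of 0.001, 100% of products of FPKM and gene length were whole multiples of 1 step. The reads this gives served for depth, for the filter (10 reads scaled to depth in at least 4 libraries, and 15 in total) and for a voom alternative. limma 3.58.1 in R 4.3.3 was run with a trend on log2(FPKM + 0.5), which understates changes of low genes. P-values are two-sided, adjusted over all 14152 genes, with calls at an adjusted p under 0.05 and no minimum fold. Scripts were tested on simulated data. A gene listed at 0 allows up to 3 reads, which covers counting error only. Each replicate was a separate mouse.

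Named genes were the 6 largest falls and 6 largest rises called without mouse 808 (protein coding, mean of at least 1 FPKM, groups apart), the 10 lowest p with all 8 libraries, up to 2 members of lowest p of each list described, and a set of HIF and iron genes. Some genes that this rule names are not reported here. Genes said to be named after their values were seen, and Ndufv3, were added after their values were seen. The comparison, the lists and the omission of mouse 808 were chosen with earlier results of these data known. Promoters came from RefSeq (GRCm38.p6), and gene positions from the deposited tables (mm39).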

Additional observations from a re-analysis of the deposited data

Results flagged for a closer look

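In 148 groups of 4 libraries examined for single deviant values, 19 values stood farther from their group than Dixon's 95% critical value (0.829) allows. Chance flags about 1 in 20 groups of 4, a rate that cannot be read against these, because many of the genes were named for calls made without mouse 808, a choice that favours such values. Of the 19, 12 were of roxadustat mouse 808, each lying away from the other treated mice on the side of the control livers. They were Sult2a1 at 203 FPKM, Sult2a2 at 366 FPKM, Cyp2b13 at 124 FPKM, Sult3a1 at 156 FPKM, Cyp3a44 at 111 FPKM, Prlr at 27.5 FPKM, A1bg at 28.2 FPKM, Cux2 at 3.12 FPKM, Vsig4 at 16.9 FPKM, Apcs at 190.0 FPKM, Irgm2 at 20.2 FPKM and Ndufv3 at 26.5 FPKM.

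Control mouse 801, whose library had the fewest reads, was the high value among controls for 4 male-biased or complement genes. These were Cyp4a12a at 1.27 FPKM, Hsd3b5 at 8.28 FPKM, Srd5a1 at 15.2 FPKM and C6 at 7.27 FPKM. Control mouse 802 was the single control with reads of Cyp2d12, at 0.0356 FPKM. Control mouse 789 was high for Egln1, at 9.5 FPKM, and for Hamp, at 4460 FPKM.

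The muscle library of mouse 808, outside the liver comparison, lay at a median position of 1.17 between control (0) and PCOS vehicle (1) muscle, whereas its liver library lay at -0.00647. The difference between its tissues rests on 1 mouse and was not tested.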

How the results depend on the processing

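With all 8 libraries the count of called genes was 0. It was 1 (higher) with no filter on low values, 2 (both lower) with voom, 16 (6 higher and 10 lower) with library weights and 1 (lower) with all 3 liver groups fitted together. Leaving out 1 library gave 0 to 150 calls, 0 to 81 higher and 0 to 69 lower: 150 without mouse 808, 2 without control 802 (1 higher, 1 lower) and 0 in the others. Without mouse 808 the count was 150 (81 higher and 69 lower). It was 91 (52 and 39) with no filter, 84 (40 and 44) with a term for libraries with few genes of 1 to 3 reads, and 127 higher with library weights. Leaving out 1 more library gave 75 to 196 calls, 36 to 123 higher and 35 to 73 lower, with 75 without mouse 767 or mouse 782, 85 without mouse 795 and 196 without control 802. The other alternatives stayed within 1.5 times. These alternatives differ in libraries, genes tested and terms of the fit, which also changes power. Why the counts moved was not tested. Roxadustat against PCOS vehicle gave 0 under every alternative.

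Of 47 named genes called without mouse 808, 21 stayed called with each of the other 7 libraries left out in turn, and 18 under every alternative run. Alternatives that left out no library ended the calls of 24 named genes, in 1 to 6 alternatives each, with 18 lost with no filter, 16 with the term for few genes of 1 to 3 reads and 11 with voom. The 18 that kept their calls were C4a, C6, Cux2, Cyp2b13, Cyp2d9, Cyp4a12a, Elovl3, Fmo2, Gstp1, Hsd3b5, Mt1, Mup11, Mup12, Mup20, Mup21, Mup7, Sult2a1 and Sult2a2. Signs turned for some genes that were not called. With all 8 libraries and 1 left out, log2 differences ran from -0.072 to 0.27 for Egln3, -0.14 to 0.024 for Egln1, -0.41 to 0.25 for Ankrd37, -0.29 to 0.27 for Ldha, -0.19 to 0.44 for Angptl4, -0.76 to 1.07 for Igfbp1 and -0.28 to 0.082 for Trf. Signs also turned with library weights for Egln3 (-0.076), Ldha (-0.10) and Igfbp1 (-0.53), under quantile scaling for Ldha (-0.11) and with the term for few genes of 1 to 3 reads for Ldha (-0.069) and Igfbp1 (-0.87). Without mouse 808 and 1 more library they ran from -0.22 to 0.11 for Egln3, -0.42 to 0.24 for Ankrd37, -0.17 to 0.16 for Pdk1 and -1.46 to 0.13 for Igfbp1, and signs turned with the term for few genes of 1 to 3 reads for Egln3 (0.029) and Pdk1 (0.0017). No paired analysis was possible because no mouse number is shared between the liver groups. Genes listed in only 1 of the liver tables were not compared. Depth limits genes of few reads, such as Cyp2d12.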
